A study of Mus musculus with 4 samples.

Results

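Forkhead factors are transcription factors that share a DNA-binding domain and are sorted by sequence into lettered classes. They were followed here through every non-control probe of the array whose gene name in the scanner files was Fox, a class letter from a to s, and a number, with Foxj1 left out. This rule found 59 probes for 40 genes, out of 27370 gene names on the array, and 28 of the 40 genes had at least 1 probe bright enough to be tested. The cells were mouse germline stem cells, spermatogonial stem cells kept in culture, that carried a Cre-ERT2 knock-in and the construct CAG-CAT-3FlagNanos2. Cre-ERT2 is a recombinase that works once 4-hydroxytamoxifen binds it, and the construct makes tagged Nanos2, an RNA-binding protein of spermatogonial stem cells, after recombination. There were 2 arrays of cells given 4-hydroxytamoxifen and 2 arrays of cells given DMSO, each for 48 hours, and the question was which transcripts differ once Nanos2 is forced on.

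Cells of both groups held the recombinase and the construct alike, and none without the construct were given the compound, so what Nanos2, the recombinase and the compound each do cannot be told apart. Feeder cells, embryonic fibroblasts stopped with mitomycin, were taken away before RNA was extracted. Nothing in the labels says that the 2 arrays of a group are separate cultures; the p-values then cover no more than the spread between these arrays, which may be technical. Levels are given as normalized signal, the array intensity after each array was scaled to a common upper percentile, and levels of different probes are not compared. Nanos2 read 930 and 1097 units in 4-hydroxytamoxifen cells, against 345 and 341 in DMSO cells, a rise of 1.56 ± 0.10 on the log2 scale (SE, limma adjusted p = 0.000842). The germ cell markers Ddx4 and Sall4 were well above background on all 4 arrays and did not pass the test (-0.17 and -0.15), while 10 of the 13 germ cell markers tested fell (76.9%, against 29% of all features) and the 1 that rose was Nanos2. Nanos3 (-4.76), Sohlh2 (-3.78) and Gfra1 (-2.44) fell most by fitted value, and Ret, below background in 4-hydroxytamoxifen cells, was at least 1.25-fold lower there. Ret, counted among the 10, was bright enough to be tested only through the DMSO arrays. It is not known here if the Nanos2 probe also reads the construct. Of all spots, 65.9% and 62.1% were well above background on the 4-hydroxytamoxifen arrays and 62.7% and 62.4% on the DMSO arrays.

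Forkhead classes do unlike work. FOXO factors stand at the end of insulin and growth factor signalling: when the kinase AKT is active it phosphorylates them and they leave the nucleus, and in the mouse testis Foxo1 is needed to keep spermatogonial stem cells. FOXM1 drives the genes of mitosis together with MYBL2 and the LIN proteins. Classes C, D, F and S include factors known from mesenchyme and vessels of the embryo.

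The promoters of 5 genes that passed the test are shown because they include pairs that moved the same way: Foxo1 and Foxo3, which fell, and Foxc1, Foxf2 and Foxd1, which rose and all lie on chromosome 13. They are RefSeq sequences of assembly GRCm38.p6, from 250 bases before to 50 bases after the gene's start, and capitals mark the CCAAT box in either direction.
Foxo1 promoter, chr3:52268087-52268386, plus strand: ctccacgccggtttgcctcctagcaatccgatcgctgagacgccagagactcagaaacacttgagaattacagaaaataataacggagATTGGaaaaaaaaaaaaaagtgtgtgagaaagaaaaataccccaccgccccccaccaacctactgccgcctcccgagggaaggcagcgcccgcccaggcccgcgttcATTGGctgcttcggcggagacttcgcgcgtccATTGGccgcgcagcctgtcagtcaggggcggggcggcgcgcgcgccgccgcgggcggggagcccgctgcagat
Foxo3 promoter, chr10:42276646-42276945, minus strand: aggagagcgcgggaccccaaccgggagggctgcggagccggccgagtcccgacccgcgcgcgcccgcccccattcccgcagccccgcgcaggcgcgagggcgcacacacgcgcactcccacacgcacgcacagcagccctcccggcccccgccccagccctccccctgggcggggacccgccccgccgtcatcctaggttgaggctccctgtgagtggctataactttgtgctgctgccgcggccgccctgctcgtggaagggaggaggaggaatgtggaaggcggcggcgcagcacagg
Foxc1 promoter, chr13:31806396-31806695, plus strand: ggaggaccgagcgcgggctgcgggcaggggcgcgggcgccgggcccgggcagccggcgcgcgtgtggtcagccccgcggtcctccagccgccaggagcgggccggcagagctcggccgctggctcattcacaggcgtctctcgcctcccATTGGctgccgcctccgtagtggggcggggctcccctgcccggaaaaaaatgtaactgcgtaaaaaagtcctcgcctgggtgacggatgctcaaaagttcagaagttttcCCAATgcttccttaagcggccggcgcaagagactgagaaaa
Foxf2 promoter, chr13:31625566-31625865, plus strand: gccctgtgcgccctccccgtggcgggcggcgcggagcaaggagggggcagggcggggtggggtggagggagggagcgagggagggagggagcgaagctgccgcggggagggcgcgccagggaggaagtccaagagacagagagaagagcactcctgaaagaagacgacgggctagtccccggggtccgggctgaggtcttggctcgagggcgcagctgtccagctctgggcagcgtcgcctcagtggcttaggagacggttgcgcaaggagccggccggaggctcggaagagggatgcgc
Foxd1 promoter, chr13:98353995-98354294, plus strand: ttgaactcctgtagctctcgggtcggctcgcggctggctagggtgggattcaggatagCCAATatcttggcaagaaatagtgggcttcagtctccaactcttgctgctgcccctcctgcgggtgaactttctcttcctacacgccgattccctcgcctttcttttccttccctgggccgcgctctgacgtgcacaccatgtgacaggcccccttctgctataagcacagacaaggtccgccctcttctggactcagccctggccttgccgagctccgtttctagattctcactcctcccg

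RefSeq promoters were matched for 26 of the 40 forkhead genes, 31 promoters in all. None was matched for Foxm1, Foxo6, Foxf1, Foxc2, Foxk1 or Foxs1, so the shares below do not cover these genes. Foxa2, Foxp1 and Foxp3 had more than 1 promoter, and the shares count promoters. The Foxo1 promoter held 3 CCAAT boxes on the reverse strand, at positions -162, -55 and -23 counted from the start at 0. The Foxc1 promoter held 2, at -101 and 9, and the Foxd1 promoter held 1, at -192. The letters CCAAT were searched on both strands and stood in 48.4% of the forkhead promoters, against 37.4% of 32851 promoters in the table. The forkhead site TGTTTAC stood in 3.23% of the forkhead promoters, only that of Foxa1, against 3.65% of all. The cell cycle motif CHR (TTTGAA or TTCGAA) stood in 9.68% against 19.2% of all, and the E2F motif (TTTGGCGC, TTTCCCGC, TTTGCCGC or TTTCGCGC) in 0% against 2.26%. The GC box GGGCGG stood in 71.0% of the forkhead promoters and 35.7% of all. The GC box can overlap the end of an E2F match, and the other motifs do not contain one another. These matches describe the letters of the window and nothing about binding.

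Of the 28 forkhead genes tested, 9 rose, 7 fell and 12 did not pass the test. A gene passed at a limma p under 0.05 after Benjamini-Hochberg adjustment over all 17537 features. The forkhead shares were 32.1% higher and 25% lower, and over all features 40.5% were higher and 29% lower. At least 2-fold differences were found for 5 forkhead genes that rose (17.9%, against 16.3% of all features) and for 6 that fell (21.4%, against 8.05% of all features). The 4-hydroxytamoxifen and DMSO arrays did not overlap for 21 of the 28 forkhead genes (75%), against 86.5% of all features. The median log2 difference was 0.03 over the 28 forkhead genes, with quartiles at -0.41 and 0.65, and 0.12 over all features, with quartiles at -0.38 and 0.71. The median over all features was -0.034 with spike-in scaling and -0.063 with median scaling, so differences near 0 have no settled direction. The forkhead genes thus spread to both sides, and those that moved furthest belong to different classes.

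**Figure D1:**
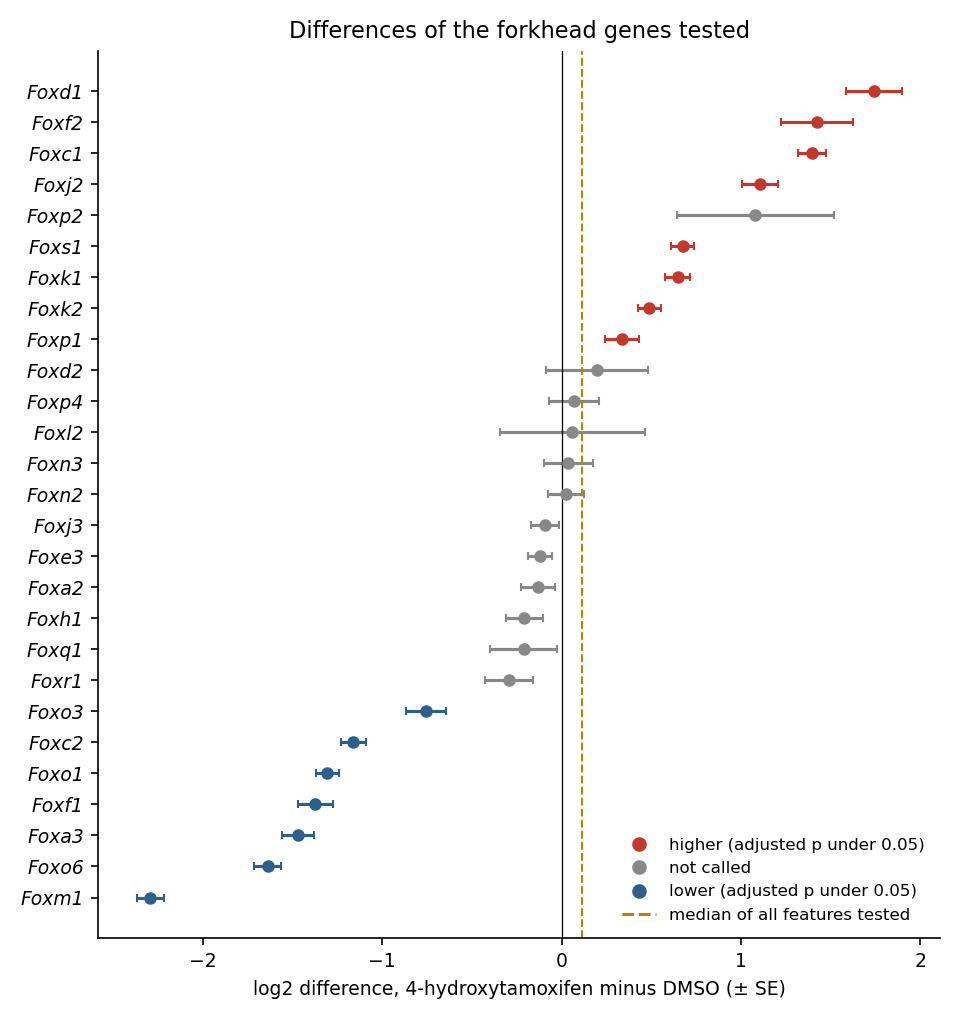
Log2 difference, 4-hydroxytamoxifen minus DMSO, of 27 forkhead genes tested (points, with the SE of the limma fit), coloured by whether the gene passed an adjusted p under 0.05; the dashed line is the median of all features at 0.12. Foxd1 stands highest at 1.74 and Foxm1 lowest at -2.29.

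Of class O, Foxo1, Foxo3 and Foxo6 fell, and Foxo4 was too dim to test. Foxo1 read 4158 and 4092 units in 4-hydroxytamoxifen cells and 10394 and 9996 units in DMSO cells on its brightest probe, at chromosome 3, positions 52153289 to 52153348 of mm9. Both 4-hydroxytamoxifen arrays lay below both DMSO arrays, with arrays of a group close together. The difference was -1.31 ± 0.06 on the log2 scale, 2.47-fold lower (SE, n = 2 each, limma adjusted p = 0.000554).

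The other Foxo1 probe, 3106 bases upstream on mm9, read 2979 and 3746 units in 4-hydroxytamoxifen cells, against 9221 and 8514 units in DMSO cells. Its difference of -1.41 ± 0.16 passed as well (limma adjusted p over all probes = 0.0110), so separate stretches of the Foxo1 transcript gave the same direction and nearly the same size. Its sequence is shown, on mm9, because the Foxo1 value rests on these 2 probes.
Foxo1 probe, chr3:52150183-52150242, plus strand: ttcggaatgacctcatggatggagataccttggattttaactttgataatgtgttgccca

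Foxo6, a FOXO factor of the brain that shuttles less readily out of the nucleus than its relatives, read 4222 and 4539 units in 4-hydroxytamoxifen cells and 13969 and 13298 units in DMSO cells. It fell 3.11-fold, a log2 difference of -1.64 ± 0.07 (limma adjusted p = 0.000504). This was the largest drop of the class, on 1 probe at chromosome 4, positions 119939688 to 119939747. Foxo3, which restrains the awakening of ovarian follicles and the cell cycle of blood stem cells, was dim, at 27.0 and 29.6 units in 4-hydroxytamoxifen cells and 44.0 and 51.8 units in DMSO cells. Its groups did not overlap, and it fell by 0.75 ± 0.11 (limma adjusted p = 0.00523). A second Foxo3 probe, dimmer still at 13.9 and 17.7 units against 17.7 and 22.1 units in DMSO cells, differed by -0.34 ± 0.19 and did not pass. Foxo4 was not well above background on any array, at 12.4 and 16.5 units in 4-hydroxytamoxifen cells and 3.63 and 14.7 units in DMSO cells, and was not tested. In bulk RNA, fewer cells of a type and less RNA per cell cannot be told apart, here and for every gene below.

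The genes that control FOXO proteins moved both ways. Of 35 regulators tested, 12 rose, 16 fell and 7 did not pass, with a median of -0.18. The shares were 34.3% higher and 45.7% lower, against 40.5% and 29% of all features. The insulin receptor Insr rose by 1.35 ± 0.19 (limma adjusted p = 0.00429). Prmt1, which methylates FOXO1, fell to 4813 and 6982 units in 4-hydroxytamoxifen cells, against 28283 and 23384 units in DMSO cells, a difference of -2.15 ± 0.22. Skp2, which marks FOXO1 for destruction, and Sgk3, an AKT-like kinase, also fell (-1.83 and -1.44); Skp2 stands in the FOXM1 list as well. The count of rises depends on scaling: with arrays scaled on spike-in probes, 5 regulators rose.

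With arrays scaled to the upper percentile, most genes named as FOXO targets in other tissues rose. Of 28 tested, 19 rose, 3 fell and 6 did not pass, with a median of 0.57 (0.55 with the genes below background in a group at their bound). Of these genes 67.9% rose, against 40.5% of all features. Some of these rises were small: Sesn1 (0.22), Ccng2 (0.23), Bnip3 (0.26) and Pik3ip1 (0.36). Foxk2, which rose by 0.49, missed the threshold with spike-in scaling, so the count of rises may depend on scaling. Ppargc1a among those that rose and Fasl among those that fell passed the filter only through the group where they were higher. Igfbp1, a binding protein for insulin-like growth factors, read 704 and 586 units in 4-hydroxytamoxifen cells and 18.1 and 19.3 units in DMSO cells, close to background there, and rose by 5.11 ± 0.11 (limma adjusted p = 0.000365). Rbl2, a brake on the cell cycle, rose by 1.44 ± 0.12. Insr, described among the regulators, stands in this list as well. Fasl, a death ligand, was not well above background in 4-hydroxytamoxifen cells and was at least 1.73-fold lower there. The oxidative stress enzymes Sod2 and Cat (0.09 and 0.16) and the cell cycle inhibitor Cdkn1b (0.39) did not pass. Several of these genes are also known to answer to other factors.

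**Figure D2:**
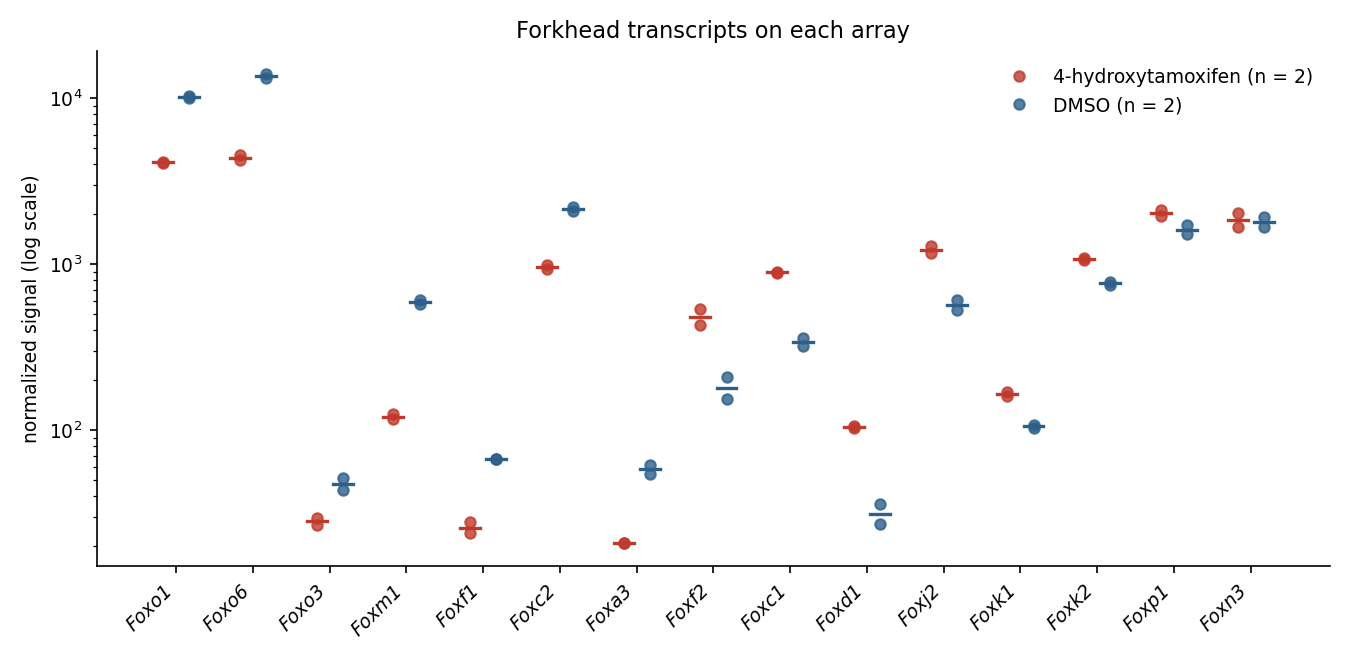
Normalized signal on each array (points, log scale; bars are geometric means of 2 arrays) for 15 forkhead genes, with 4-hydroxytamoxifen left of DMSO. Foxn3 is the gene shown whose groups overlap; levels of different genes come from different probes and are not comparable.

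Foxm1 had the largest difference of the forkhead genes in either direction. It read 125 and 117 units in 4-hydroxytamoxifen cells, against 613 and 573 units in DMSO cells. The groups lay far apart compared with the spread within them, and Foxm1 fell 4.90-fold, a log2 difference of -2.29 ± 0.08 (limma adjusted p = 0.000392). Its probe lies on chromosome 6, positions 128324783 to 128324842 of mm9, and no other Foxm1 probe was tested. Whether a probe lies in coding or untranslated exon was not determined here, for Foxm1 or the other genes. Foxm1's partners and the G2/M genes that it is known to drive fell with it: of 33 tested, 31 fell, 1 rose and 1 did not pass, with a median of -1.96. The share that fell was 93.9%, against 29% of all features. The log2 difference was -3.93 ± 0.08 for Aurkb, a kinase of chromosome segregation, and -3.42 ± 0.07 for Ccnb2, a mitotic cyclin. It was -2.99 ± 0.13 for Hmmr, a spindle protein, and -2.93 ± 0.08 for Plk1, a kinase that activates FOXM1. Mybl2, the partner of FOXM1 on its targets, fell by 2.68 ± 0.09. The gene that rose was Lin52 (0.53 ± 0.06), which missed the threshold with spike-in scaling, and Cdc25b at 0.05 ± 0.06 was the one that did not pass; both were named after their values were seen.

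**Figure D3:**
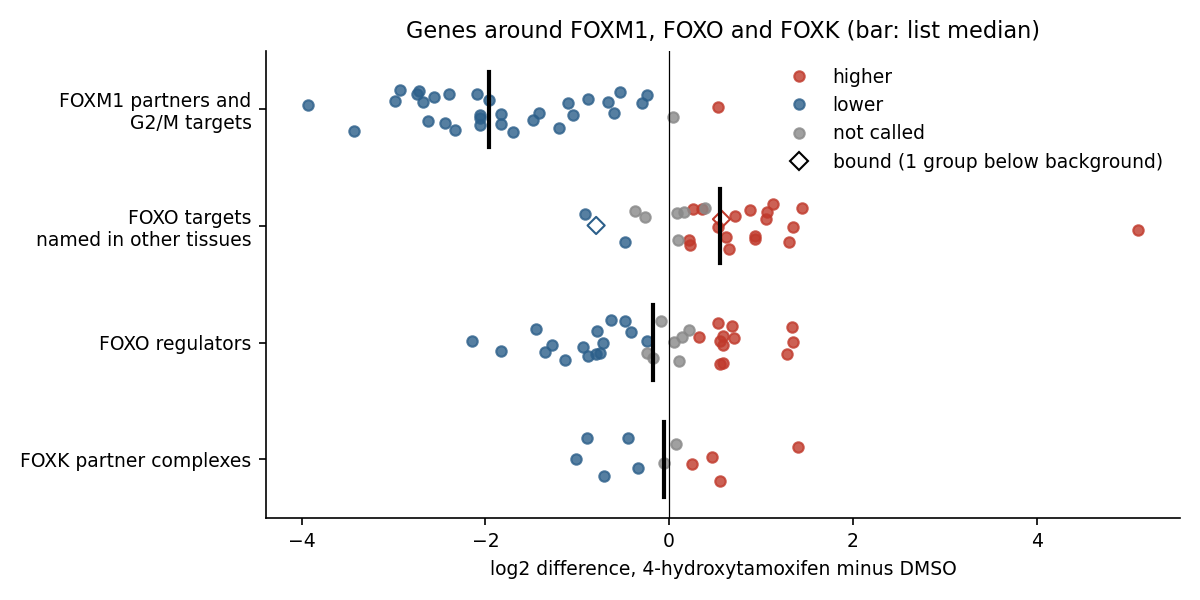
Log2 differences, 4-hydroxytamoxifen minus DMSO, of the genes around FOXM1, FOXO and FOXK (points; black bars are list medians, diamonds are bounds). The FOXM1 list has its median at -1.96 and the list of FOXO targets at 0.55 with bounds in place.

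The forkhead genes of classes C, D, F and S that passed the test split. Foxd1, a factor of kidney stroma, read 106 and 103 units in 4-hydroxytamoxifen cells and 27.1 and 35.9 units in DMSO cells. It rose 3.34-fold, a log2 difference of 1.74 ± 0.15 (limma adjusted p = 0.00143), the largest rise among the forkhead genes. The probe lies on chromosome 13, positions 99126369 to 99126428, and a second Foxd1 probe 83 bases downstream gave 1.38 ± 0.12.

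Foxf2, which acts in the mesenchyme of gut and palate and in pericytes, read 539 and 428 units in 4-hydroxytamoxifen cells and 154 and 208 units in DMSO cells. It rose by 1.42 ± 0.20 (limma adjusted p = 0.00452), with the widest spread between arrays of the forkhead genes that passed. Foxc1, a factor of eye, bone and vessel development, read 902 and 889 units in 4-hydroxytamoxifen cells, against 323 and 358 units in DMSO cells, a rise of 1.40 ± 0.08 (limma adjusted p = 0.0007). Foxs1, a gene of sensory ganglia and pericytes, rose by 0.67 ± 0.06.

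Foxc2, a factor of lymphatic vessels that also marks slowly dividing stem spermatogonia in the mouse, read 987 and 936 units in 4-hydroxytamoxifen cells and 2087 and 2212 units in DMSO cells. It fell 2.24-fold, a log2 difference of -1.16 ± 0.07 (limma adjusted p = 0.000769), opposite to its class relative Foxc1. Foxf1, needed in mesoderm and lung vessels, read 24.1 and 27.9 units in 4-hydroxytamoxifen cells and 66.9 and 67.3 units in DMSO cells. It fell by 1.37 ± 0.10 (limma adjusted p = 0.000921), opposite to Foxf2. The Foxf1 probe, on mm9, is shown because the value rests on it alone.
Foxf1 probe, chr8:123610681-123610740, plus strand: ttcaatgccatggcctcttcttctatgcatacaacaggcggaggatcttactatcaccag

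Markers of fibroblasts were higher beside these genes. Of 20 tested, 19 rose, 0 fell and 1 did not pass, with a median of 0.99, where 40.5% of all features rose and 29% fell. Thbs1 (1.49), Pdgfrb (1.40), Twist2 (1.31) and Fbln5 (1.27) rose most. The summed normalized signal was 361895 to 380468 units in 4-hydroxytamoxifen cells, against 200018 to 226625 units in DMSO cells. Fibroblast transcripts were thus bright in both groups, although feeder cells had been taken away. Col1a2, for example, read 69964 and 66873 units in 4-hydroxytamoxifen cells and 40054 and 45027 units in DMSO cells. Of 10 macrophage, blood and endothelial markers, 6 rose (60%) and 0 fell, with sums of 2164 to 2174 units, against 1023 to 1147 units in DMSO cells; Cdh5, which defines endothelium, was not tested for want of signal. Of 10 Sertoli and Leydig markers, 7 rose (70%) and 2 fell (20%), with sums of 9333 to 9742 units, against 4324 to 4751 units in DMSO cells; Gata4, Amh, Fshr, Cyp11a1, Hsd3b1 and Lhcgr were not tested for want of signal. These sums lean on single genes. Adgre1 read 1176 and 1147 units in 4-hydroxytamoxifen cells and 497 and 389 units in DMSO cells. Inhbb read 5563 and 5086 units in 4-hydroxytamoxifen cells and 2400 and 2761 units in DMSO cells. Ptprc (0.02), Cd68 (0.12), Kdr (0.22), Pecam1 (-0.47) and Star (-0.12) did not pass. The part of other cells in the forkhead differences was not tested.

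The tested forkhead genes include 3 sets whose probes lie within 300 kb of one another on mm9. On chromosome 8, Foxf1 (-1.37) and Foxc2 (-1.16) lie 32012 bases apart and both fell. On chromosome 13, Foxf2 (1.42) and Foxc1 (1.40) lie 178 kb apart and both rose, while Foxq1, a factor of hair and gut epithelium 71.3 kb beyond Foxf2, stood at -0.21 ± 0.19 and did not pass. On chromosome 4, Foxd2 (0.20 ± 0.28) and the lens factor Foxe3 (-0.12), 19.5 kb apart, did not pass. Foxd2 was well above background on 1 array of each group, and the coordinates of its 60-base probe span 26 bases.

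Genes around these sets, in the RefSeq order of GRCm38.p6 and looked at after the forkhead values were seen, moved in mixed directions. Mthfsd, between Foxf1 and Foxc2, rose by 0.48 ± 0.12 (limma adjusted p = 0.0252), and Irf8, an interferon-regulated factor beside that set, fell by 1.85 ± 0.08. Also beside it, Emc8 fell (-0.57), Fbxo31 and 1700018B08Rik rose (0.24 each), and Cox4i1 stood at -0.20 without passing. Beside the chromosome 4 set, Tal1 (2.31) and Trabd2b (0.54) rose, and Stil (-1.75) and Cmpk1 (-0.73) fell. Beside the chromosome 13 set, Hus1b (-1.27), Gmds (-0.37) and Wrnip1 (-0.35) fell, and Exoc2 stood at -0.01. Foxf2 and Foxc1 rose, and the few tested genes around them fell or did not pass, where 29% of all features fell. These neighbours were taken by order and not by distance.

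**Figure D4:**
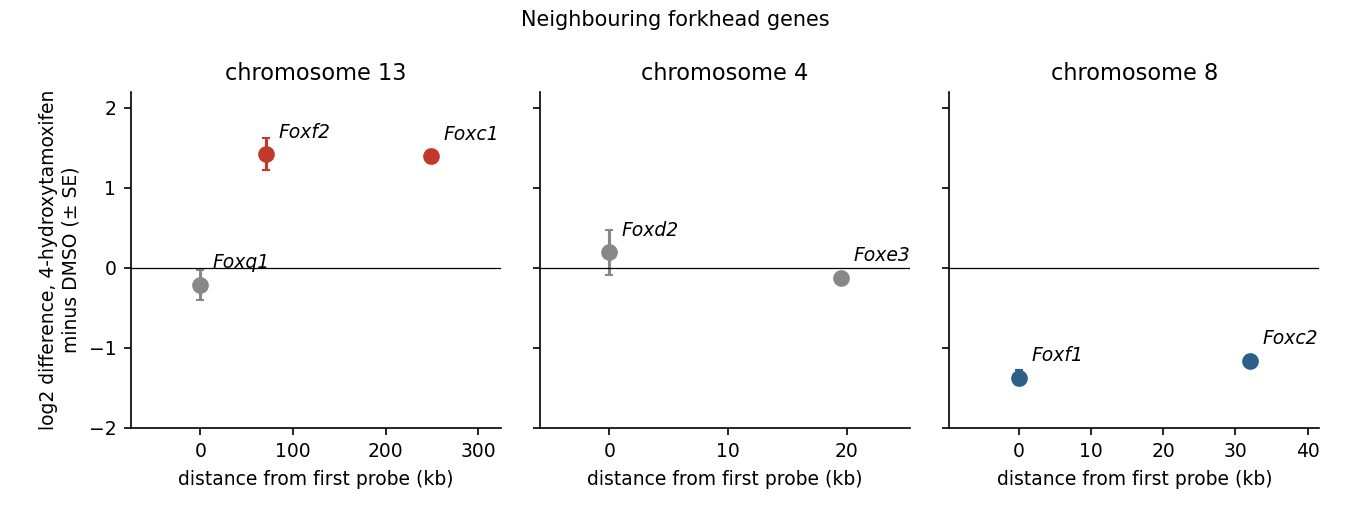
Log2 difference, 4-hydroxytamoxifen minus DMSO (± SE), of neighbouring forkhead genes against the distance in kb from the first probe of each set, on mm9. Foxf2 (1.42) and Foxc1 (1.40) are both above 0, and Foxf1 (-1.37) and Foxc2 (-1.16) both below.

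Foxj2, described in mouse spermatocytes, read 1284 and 1165 units in 4-hydroxytamoxifen cells, against 532 and 607 units in DMSO cells. It rose 2.15-fold, by 1.11 ± 0.10 (limma adjusted p = 0.00153), and its groups did not overlap. Foxa3, a liver factor, was at 21.0 and 21.0 units in 4-hydroxytamoxifen cells, the second of these not well above background, and at 62.0 and 54.5 units in DMSO cells. It fell by 1.47 ± 0.09 (limma adjusted p = 0.000748). For the dim genes the size depends on the background step. The normexp correction was run with an offset of 50 units added to every signal, which by itself shrinks the differences of dim genes. With it the differences were -0.55 for Foxa3, -0.56 for Foxf1, -0.27 for Foxo3 and 0.85 for Foxd1, each still past the threshold.

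The class K genes rose on their brightest probes. Foxk1, which represses transcription through SIN3 and acts on glycolysis and autophagy genes, read 160 and 170 units in 4-hydroxytamoxifen cells and 108 and 104 units in DMSO cells. It rose by 0.65 ± 0.07 (limma adjusted p = 0.00215), and its other probes gave 0.32 and 0.38 without passing. Foxk2 read 1061 and 1094 units in 4-hydroxytamoxifen cells, against 753 and 784 units in DMSO cells, a rise of 0.49 ± 0.06 (limma adjusted p = 0.00382).

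Other Foxk2 probes did not follow. The probe 2070 bases upstream of the brightest one read 448 and 452 units in 4-hydroxytamoxifen cells and 705 and 685 units in DMSO cells, a fall of 0.63 ± 0.08 (limma adjusted p over all probes = 0.0148). The probe between them differed by -0.00 ± 0.09, and a dim probe 12700 bases upstream of the brightest one by -0.54 ± 0.24, without passing (limma adjusted p over all probes = 0.186). The Foxk2 probes had no common direction: the mean of its probes was -0.17, and its brightest probe missed the threshold with spike-in scaling (limma adjusted p = 0.183). Of 9 forkhead genes with more than 1 probe past the filter, Foxk2 alone had probes that passed in opposite directions.

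Among complexes that work with FOXK proteins, 4 of 11 genes rose, 5 fell and 2 did not pass, with a median of -0.06. The shares were 36.4% higher and 45.5% lower, against 40.5% and 29% of all features. Kdm1b, a histone demethylase, rose by 1.40 ± 0.10. Sin3a, the corepressor, Hcfc1, a scaffold of chromatin complexes, and Hdac1, a histone deacetylase, fell (-1.01, -0.89 and -0.71). With spike-in scaling 1 of these genes rose.

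**Figure D5:**
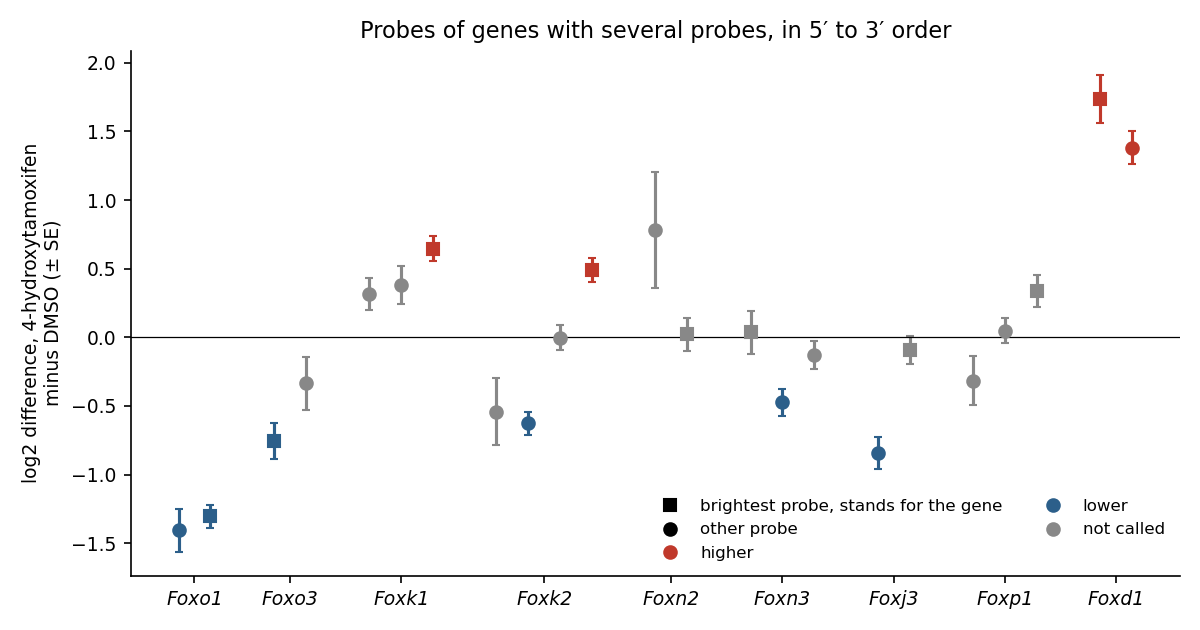
Log2 difference, 4-hydroxytamoxifen minus DMSO (± SE), of each probe of the 9 forkhead genes with several probes past the filter, in 5′ to 3′ order, coloured by an adjusted p over all probes. The Foxo1 probes are both lower (-1.41 and -1.31), and Foxk2 has a probe at -0.63 and another at 0.49; the brightest Foxp1 probe passed over features and not over probes.

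Of the class P and N genes tested, Foxp1 alone passed on its brightest probe. Foxp1, a factor of lung and B cells, read 2116 and 1963 units in 4-hydroxytamoxifen cells and 1515 and 1715 units in DMSO cells. Its rise of 0.34 ± 0.09 passed narrowly (limma adjusted p = 0.0336) and did not pass with spike-in scaling (limma adjusted p = 0.480), or without 4-hydroxytamoxifen replicate 1 (0.140), 4-hydroxytamoxifen replicate 2 (0.0763) or DMSO replicate 1 (0.110). Its other probes gave 0.05 and -0.32. Foxn3, a checkpoint factor, read 2050 and 1668 units in 4-hydroxytamoxifen cells, against 1688 and 1923 units in DMSO cells. These groups overlapped, at 0.04 ± 0.14 (limma adjusted p = 0.820), while a Foxn3 probe 829 bases downstream fell by 0.47 ± 0.10. Foxp2, linked to speech in humans, was at 50.4 and 44.3 units in 4-hydroxytamoxifen cells and 34.2 and 14.6 units in DMSO cells, the last of these not well above background. Its difference of 1.08 ± 0.44 did not pass (limma adjusted p = 0.0904), but it did with normexp correction (limma adjusted p = 0.0342). It also passed with spike-in scaling, where p followed the size of the difference and not the spread of a gene's arrays. It also passed with 1 DMSO array left out, at 1.69 without DMSO replicate 1 and 0.47 without DMSO replicate 2.

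Probes of related genes can share bases. Over 1684 pairs of forkhead probes for different genes, the most alike were a Foxp2 probe and a Foxp4 probe, with 44 identical bases of 59 that overlap, and the next pair had 28. They are shown with the 15 bases that differ in capitals. This Foxp2 probe did not pass the filter and is not the one described above. In any alignment, no 2 forkhead probes of different genes shared a run of more than 12 bases.
Foxp2 probe: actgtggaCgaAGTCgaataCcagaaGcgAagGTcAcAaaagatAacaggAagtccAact
Foxp4 probe: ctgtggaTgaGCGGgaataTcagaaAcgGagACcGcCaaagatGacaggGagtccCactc

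Of the other genes that were tested and did not pass, Foxa2, an endoderm factor, stood at -0.13 ± 0.09 and Foxh1, a SMAD partner in nodal signalling, at -0.21 ± 0.10. Foxr1 was at -0.29 ± 0.13 with its arrays apart, and Foxj3, needed in the mouse male germline, at -0.09 ± 0.08 on its brightest probe. A dimmer Foxj3 probe 2425 bases upstream fell by 0.85 ± 0.12. Foxn2 (0.02), Foxp4 (0.07) and Foxl2 (0.06), the ovarian granulosa factor, overlapped between groups, and Foxl2 was well above background on 1 array of each group.

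No probe passed the filter for 12 genes: Foxa1, Foxb1, Foxb2, Foxd3, Foxd4, Foxe1, Foxi1, Foxi2, Foxn1, Foxn4, Foxo4 and Foxp3. Their signals lay between 3.15 and 52.2 units in 4-hydroxytamoxifen cells and between 3.21 and 15.2 units in DMSO cells. Among all these values 1 was well above background, that of Foxn1, the thymus epithelium factor, on 1 4-hydroxytamoxifen array, with 19.1 units on the other 4-hydroxytamoxifen array and 6.49 and 15.2 units on the DMSO arrays. Foxp3, the factor of regulatory T cells, and Foxd3, a factor of pluripotent cells and neural crest, were not well above background on any array.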

How the data were processed

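Per the labels, total RNA of each sample was hybridised to 1 Agilent 1-colour array. The deposited scanner files hold intensity per spot on a linear scale, which Feature Extraction 10.7.3.1 had background-subtracted and detrended, per the file headers; the submitters' processing notes name version 9.5. The deposited value table holds log2 values, each equal to the log2 of that array's processed signal with a fixed shift, and was an alternative. Each array had 43379 spots and 0 saturated spots; the lowest signal well above background was 15.0 to 19.5 units, and the number of arrays limits the precision.

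Processed signals were put on the log2 scale, and every array was shifted so that its percentile 75 lay at a common level (normalized signal). Control and outlier spots were left out and spots of a probe averaged. A probe was kept if 2 or more of the 4 arrays showed it well above background (26393 of 41174), and the brightest stood for its gene. The fit used limma 3.58.1 under R 4.3.3 (lmFit, eBayes, group only), with Benjamini-Hochberg adjustment over 17537 features; the fit was tested on simulated data. Where a group was below background on both arrays, a bound is given: the other group's mean against the dim group's mean of, on each array, the probe's own signal or the array's lowest signal above background, whichever was higher. Of 59 forkhead probes, 49 were named by accession and 10 by symbol through RefSeq; coordinates of probes are mm9, per the file headers.

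Members and gene lists were chosen with earlier results of these data known. Values on every array are given for forkhead genes past the threshold with at least a 2-fold difference and for Foxo1, Foxo3, Foxo4, Foxm1, Foxk1, Foxk2, Foxp1 and Foxn3; Foxp2 and Foxn1 were added after their values were seen. Some values that this rule names are not reported here. The FOXO, FOXM1 and FOXK lists and the germ cell and fibroblast markers are represented by at most 4 members past the threshold that differed most in the fit, and others named were chosen after their values were seen. Deviations of same-numbered arrays correlated at -0.05, so replicate numbers were not taken as pairs. Alternatives covered background correction, scaling, filter, probe choice, the value table, the replicate block and leaving out each array.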

Additional observations from a re-analysis of the deposited data

How the results depend on the processing

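All 13 alternatives were run, and 14 of the 16 forkhead genes that passed kept direction and call wherever they were tested; Foxk2 and Foxp1 did not. Of the 12 that had not passed, 0 kept both their direction and the lack of a call throughout. With the replicate block 9 forkhead genes rose and 7 fell, but Foxp1 lost its call (adjusted p = 0.0699) and Foxp2 gained one (0.0355). Scaling moved the level of all genes: 58.3% of all calls were higher in the main setting, 50.5% with spike-in scaling and 46.7% with median scaling. With median scaling 12 forkhead genes fell and 8 rose. With spike-in scaling the limma adjusted p followed the size of the difference, not the spread of a gene's arrays. Foxl2 at -0.091, whose DMSO arrays lay far apart, had 0.748, and Foxp4 at -0.0805 had 0.778. Calls gained or lost there thus do not weigh a gene's own spread. The median over the forkhead genes was -0.11 with quantile normalization, -0.15 with median scaling, -0.12 with spike-in scaling, -0.13 with probes averaged per gene, and -0.0774 to 0.0890 without 1 array.

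Directions turned for Foxk2 (-0.17 with the mean of probes) and for genes that had not passed. With quantile normalization these were Foxd2 (-0.0686), Foxl2 (-0.23), Foxn2 (-0.008) and Foxp4 (-0.16). With median scaling they were Foxl2 (-0.12), Foxn2 (-0.16), Foxn3 (-0.14) and Foxp4 (-0.11), and with spike-in scaling Foxl2 (-0.091), Foxn2 (-0.13), Foxn3 (-0.11) and Foxp4 (-0.0805). Foxn3 was -0.19 with the mean of probes and Foxp4 -0.0083 with normexp correction. Without 1 array the ranges were -0.19 to 0.58 for Foxd2, -0.51 to 0.63 for Foxl2, -0.0835 to 0.127 for Foxn2, -0.11 to 0.19 for Foxn3, -0.0986 to 0.237 for Foxp4 and -0.47 to 0.0417 for Foxq1. Foxp1 missed the threshold in 8 alternatives. Foxp2 passed with normexp correction, spike-in scaling and the replicate block. Without DMSO replicate 2, Foxq1 stood at -0.47, Foxd2 at 0.58 and Foxl2 at 0.63, and without DMSO replicate 1 Foxl2 stood at -0.51. Foxr1 stood at -0.46 without 4-hydroxytamoxifen replicate 2. A fit without 1 array takes a gene's own spread from the other group alone. Calls that Foxp2, Foxq1, Foxd2, Foxl2 and Foxr1 gained there cannot weigh the spread of the group left with 1 array. With median scaling Foxa2, Foxe3, Foxh1, Foxj3 and Foxr1 passed as lower, as did Foxe3 with quantile normalization and Foxj3 with the mean of probes. The causes were not tested. Dim genes such as Foxa3, Foxo3 and Foxf1 are limited by their signal over background.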
